A study of Mus musculus with 10 samples.

Results

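A set of 40 genes of the cell cycle was examined in whole-lung mRNA of mice with increased pulmonary flow (IPF) and of sham-operated mice. The set held 21 genes of G2 and mitosis (G2/M), 16 genes of S phase entry and DNA replication (G1/S and replication), and 3 D-type cyclins, which act earlier in G1. The genes were chosen by name, and all 40 were found among the 54532 genes of the deposited table. In the IPF group an aortocaval fistula, a passage from the abdominal aorta into the inferior vena cava, was made by needle puncture at P7, and the sham group had the same laparotomy without the puncture. Both groups were wild-type mice, which the methods name as C57BL/6J, were nursed by their mothers, and had isoflurane at P7. The whole lung was collected at P30, from 5 mice per group and at 1 age. The question put to these genes was whether they differed between IPF and sham lungs, and whether the G1/S and G2/M genes did so alike.

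A cell enters the cycle when D-type cyclins and their kinases inactivate the retinoblastoma protein and free the E2F factors, which switch on the genes for DNA synthesis. The MCM proteins form the ring-shaped helicase that is loaded at replication origins in G1 and unwinds DNA in S phase. Genes of G2 and mitosis are switched on later by the MuvB complex with B-Myb and FoxM1, and their products build the spindle, hold the checkpoint and, in the anaphase-promoting complex, destroy cyclin B at the end of mitosis. In the mouse lung, alveoli are still being formed in the first weeks after birth and proliferation declines as the lung matures.

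Expression was measured as FPKM (fragments scaled by gene length and library size), a level per gene length. The number of reads on genes, recovered from the FPKM values, was 15483046 to 19026843 per sample. The lowest read number of any member in any sample was 18, so every member was measured in every lung. The tissue was lung by its markers: the surfactant gene Sftpc was at 9437 to 16514 FPKM and the endothelial gene Cdh5 at 262.7 to 332.5 FPKM. The groups also differed in sex-linked genes: Xist was at 26.8 to 43.2 FPKM in the 5 IPF lungs and at most 0.0772 FPKM in the 5 sham lungs, while Ddx3y was listed at 0 in the IPF lungs and at 14.3 to 21.4 FPKM in the sham lungs. Of 13 circadian clock genes, limma called 9 lower and 3 higher in IPF (2.14% and 3.71% of all genes tested were). Single clock genes differed strongly and in opposite directions, with log2 fold changes of -4.23 for Nr1d1, -3.53 for Dbp and 3.63 for Arntl. The mean of the clock list joins such genes, so it shows less than their full size. On the log2 scale and relative to the 10 lungs, this mean was -0.71 to -0.54 in IPF lungs 1 to 4, 0.03 in IPF 5 and 0.40 to 0.62 in the sham lungs. The groups did not overlap in Xist, in Ddx3y or in this mean, and the part of sex and of clock phase in any difference below cannot be told apart from that of IPF. Genes of atrial muscle were high in the lungs IPF 4 and sham 3 (Myl7 at 63.9 and 55.2 FPKM, against 0.206 to 2.85 FPKM in the others), and IPF 5 had the highest level of the neutrophil gene S100a9 (185.5 FPKM). In whole tissue, fewer cells of a type and less RNA per cell cannot be told apart.

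The 2 classes of cell cycle genes lay on opposite sides of 0. All 16 G1/S and replication genes had a lower mean in IPF than in sham lungs, with a median log2 fold change of -0.30 and a range from -0.66 (Mcm5) to -0.02 (Rrm2). Of the 21 G2/M genes, 20 had a higher mean in IPF, with a median of 0.27 and a range from -0.01 (Ccna2) to 0.74 (Bub1). Over all 20448 genes tested, 49.6% had a log2 fold change below 0 and 50.4% above 0, and the median was 0.0016. Each fold change is IPF minus sham on the scale of log2(FPKM + 0.1), where the added 0.1 makes changes of weakly expressed genes look smaller. The counts of 16 below 0 and 20 above 0 were also found with median-of-ratios scaling and with quantile normalization. Over all alternatives the G2/M count above 0 was lowest, 16 of 21, without IPF 4 and sham 3.

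**Figure D1:**
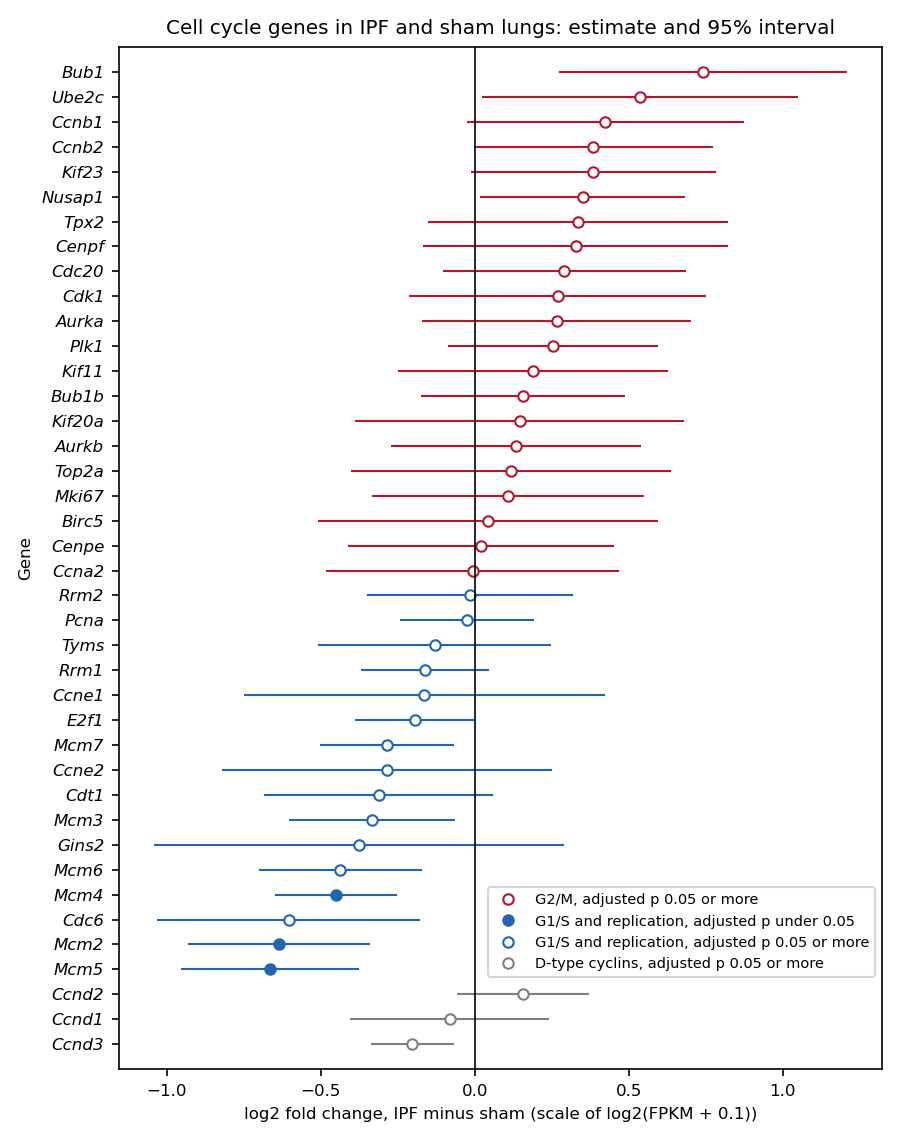
Log2 fold change (IPF minus sham, horizontal axis) of each of the 40 genes, with its 95% interval from limma, 5 lungs per group. G2/M genes (red) lie at or right of 0 and G1/S and replication genes (blue) left of 0, and only Mcm2, Mcm4 and Mcm5 (filled) pass an adjusted p of 0.05.

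Single genes passed the test in the G1/S class only. With limma and Benjamini-Hochberg adjustment over all 20448 genes, 3 of 40 members had an adjusted p under 0.05 (5.85% of all genes did), the helicase genes Mcm2, Mcm4 and Mcm5, and all 3 were lower in IPF (2.14% of all genes tested were called lower). None of the 40 was called higher, against 3.71% of all genes. None of the 40 passed the study's added limit of an absolute log2 fold change above 1, which 1.14% of all genes passed. At an unadjusted p under 0.05, 8 of 16 G1/S genes were lower and 0 higher, and 3 of 21 G2/M genes (Bub1, Ube2c and Nusap1) were higher and 0 lower, beside 8.30% of all genes lower and 11.2% higher. On the recovered reads, limma with voom called 4 G1/S genes lower, beside 3.02% of all genes, and 1 G2/M gene (Bub1) higher, beside 4.22%. No member had all IPF lungs above all sham lungs, against 4.52% of all genes, and the lower members without overlap were Mcm2, Mcm4, Mcm5 and Ccnd3, against 2.77%. The difference in calls between the 2 classes was not tested, since their members are not replicates.

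The helicase genes gave the clearest separation of the groups. Mcm5 (ENSMUSG00000005410, chromosome 8, 75109569 to 75128439 in GRCm38) was at 3.96, 5.15, 4.21, 4.70 and 3.41 FPKM in IPF lungs 1 to 5 and at 5.73, 5.74, 7.08, 7.47 and 8.26 FPKM in sham lungs 1 to 5. The highest IPF lung, IPF 2, lay below the lowest sham lung, so the groups did not overlap. Its mean was 4.29 ± 0.67 FPKM in IPF and 6.86 ± 1.11 FPKM in sham (SD, n = 5 each), which is -0.66 on the log2 scale (SE 0.13, limma adjusted p = 0.014). Mcm2 (ENSMUSG00000002870, chromosome 6, 88883474 to 88898780) was at 2.87, 3.46, 3.50, 4.20 and 2.81 FPKM in the IPF lungs and at 4.53, 4.59, 5.36, 5.22 and 6.75 FPKM in the sham lungs. Again no IPF lung reached the lowest sham lung, and the log2 fold change was -0.64 (SE 0.13, limma adjusted p = 0.018). Mcm4 (ENSMUSG00000022673, chromosome 16, 15623897 to 15637400) was at 8.59, 10.4, 8.53, 11.0 and 8.69 FPKM in the IPF lungs and at 12.2, 11.5, 13.3, 13.1 and 14.4 FPKM in the sham lungs. IPF 4, the highest of its group, stayed just under sham 2, the lowest of the other, and the log2 fold change was -0.45 (SE 0.09, limma adjusted p = 0.014). In each of these 3 genes the two-sided exact permutation test gave p = 0.00794, the smallest that 5 against 5 samples allow. The fall of Mcm5 was no longer called without IPF 4 and sham 3, the lungs with atrial muscle genes (log2 fold change -0.68, limma adjusted p = 0.069), while Mcm2 (adjusted p 0.045) and Mcm4 (adjusted p 0.037) kept their calls.

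The other 3 subunits of the ring, Mcm3, Mcm6 and Mcm7, were lower on average but did not pass the test. Mcm6 was at 7.33, 9.05, 8.20, 10.2 and 9.06 FPKM in the IPF lungs and at 9.45, 10.5, 13.0, 12.6 and 14.3 FPKM in the sham lungs. Only IPF 4 reached into the sham range, and the log2 fold change was -0.44 (95% interval -0.70 to -0.17, limma adjusted p = 0.061). It was called lower in 8 of 23 other settings of the analysis. Mcm3 had a log2 fold change of -0.33 (interval -0.60 to -0.06, limma adjusted p = 0.15), with 3 of 5 IPF lungs below every sham lung. Mcm7 had one of -0.28 (interval -0.50 to -0.07, limma adjusted p = 0.13), but its span overlaps Cops6 and Ap4m1 on the opposite strand, whose reads may be shared because the counting was not stated to use strand. The same limit holds for Cdc20 (with Elovl1), Ccna2 (Exosc9), Kif20a (Cdc23), Top2a (Gm26394), Gins2 (Gse1) and Ccne2 (Ints8). The intervals of the 6 subunits overlap, so the data do not order them.

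**Figure D2:**
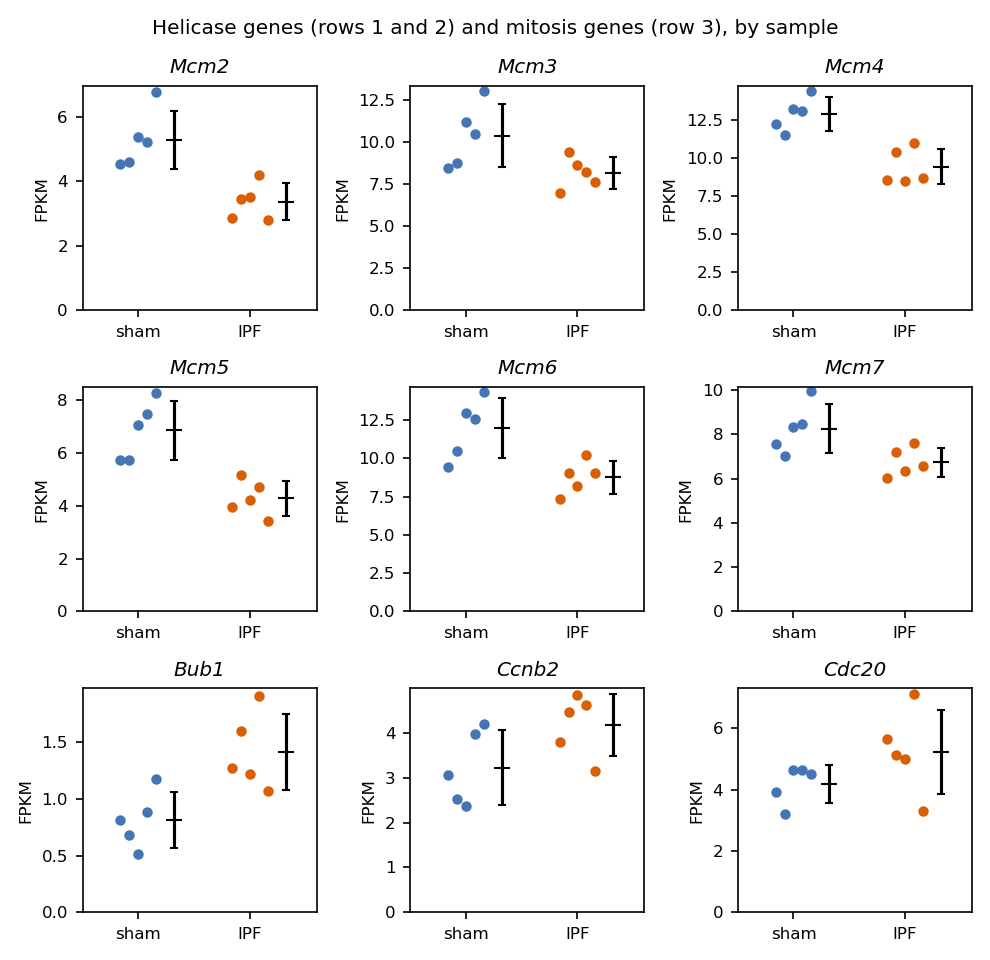
FPKM of the 6 helicase genes Mcm2 to Mcm7 and of the mitosis genes Bub1, Ccnb2 and Cdc20 in each of 10 lungs (points), with the mean and SD of each group of 5 (bars). The IPF points of Mcm2, Mcm4 and Mcm5 all lie below the sham points, while every pair of groups in the bottom row overlaps.

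Genes that load or start the helicase were also lower on average. Cdc6, which helps load the MCM ring, was at 0.472, 0.585, 0.880, 0.714 and 0.432 FPKM in the IPF lungs and at 0.859, 0.896, 0.929, 0.896 and 1.28 FPKM in the sham lungs. Only IPF 3 lay inside the sham range, and the log2 fold change was -0.60 with a wide interval (-1.03 to -0.18, limma adjusted p = 0.10). Cdt1, its partner in loading, had a log2 fold change of -0.31 (adjusted p by limma 0.35), and Gins2, a part of the active helicase, one of -0.38 (limma adjusted p = 0.55). Gins2 had as few as 21 reads in a sample, and its interval runs from -1.04 to 0.29. E2f1, a transcription factor of S phase genes, was at -0.19 (limma adjusted p = 0.25), and the E-type cyclins Ccne1 and Ccne2, which drive S phase entry, at -0.16 and -0.28, with limma adjusted p of 0.79 and 0.57.

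Within the G1/S class, the estimates of the sliding clamp and of nucleotide supply were nearest to 0. Pcna, the clamp that holds the DNA polymerase, had the highest mean level of its class and was at 28.6, 37.2, 30.9, 37.8 and 36.95 FPKM in the IPF lungs and at 29.0, 34.6, 35.03, 38.3 and 37.3 FPKM in the sham lungs. The 2 groups covered nearly the same range, and the log2 fold change was -0.03 (95% interval -0.24 to 0.19, limma adjusted p = 0.92). Rrm2, the regulated subunit of ribonucleotide reductase, was at 3.39, 3.49, 3.42, 5.41 and 3.35 FPKM in the IPF lungs and at 3.44, 3.00, 3.98, 4.12 and 4.59 FPKM in the sham lungs. IPF 4 stood far above the other 4 lungs of its group, and the log2 fold change of -0.02 (interval -0.35 to 0.32) became -0.15 without it. Rrm1, the large subunit, and Tyms, which makes thymidylate, had log2 fold changes of -0.16 and -0.13 with limma adjusted p of 0.39 and 0.73. The interval of Mcm2 (-0.93 to -0.34) did not meet that of Pcna, though the difference between genes was not tested.

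Of the G2/M genes, Bub1 and Ube2c had the highest fold changes, and neither passed the test. Bub1, a kinase of the checkpoint that holds cells until all chromosomes are attached, was at 1.27, 1.598, 1.21, 1.90 and 1.06 FPKM in the IPF lungs and at 0.808, 0.679, 0.515, 0.883 and 1.17 FPKM in the sham lungs. The values of 4 IPF lungs lay above every sham lung, and IPF 5 lay below sham 5. The log2 fold change was 0.74 (95% interval 0.27 to 1.21), with a limma adjusted p of 0.068 and a two-sided exact permutation p of 0.0159. Its relative Bub1b, which encodes another checkpoint protein, was at 0.16 (limma adjusted p = 0.62). Ube2c, the ubiquitin-conjugating enzyme of the anaphase-promoting complex, was at 1.92, 2.81, 2.52, 4.64 and 2.00 FPKM in the IPF lungs and at 1.42, 1.67, 1.68, 2.66 and 1.71 FPKM in the sham lungs. IPF 4 was the highest of the 10 and sham 4 the highest of its group, and the log2 fold change was 0.54 (interval 0.02 to 1.05, limma adjusted p = 0.23). Cdc20, the activator of the same complex and the G2/M gene with the highest mean level, was at 5.63, 5.14, 4.98, 7.11 and 3.30 FPKM in the IPF lungs and at 3.93, 3.19, 4.63, 4.63 and 4.49 FPKM in the sham lungs. All IPF lungs but IPF 5 exceeded every sham lung, and the log2 fold change was 0.29 (interval -0.10 to 0.68, limma adjusted p = 0.41). It was 0.17 without IPF 4 and 0.44 without IPF 5, and was not called in either case.

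The mitotic cyclins and their kinase did not pass the test. Ccnb1 and Ccnb2, the B-type cyclins that start mitosis, had log2 fold changes of 0.42 and 0.39, with limma adjusted p of 0.28 and 0.26. In Ccnb1 every IPF lung but IPF 5 lay above the sham lungs. Cdk1, the kinase they activate, was at 0.27 (interval -0.21 to 0.75). Ccna2, the A-type cyclin that acts in S phase and G2, was at 1.70, 2.12, 2.20, 3.79 and 1.58 FPKM in the IPF lungs and at 2.14, 1.86, 1.82, 2.40 and 2.83 FPKM in the sham lungs. IPF 4 was again far above the rest, and the log2 fold change of -0.01 (interval -0.48 to 0.47) was the only one below 0 in its class.

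The remaining G2/M genes had estimates between 0.02 and 0.38, all with intervals that reach 0 or below except Nusap1. Nusap1, which bundles spindle microtubules, had a log2 fold change of 0.35 (interval 0.02 to 0.68, limma adjusted p = 0.23). Its span overlaps Oip5 on the opposite strand and n-R5s204 on the same strand. The motor gene Kif23, which acts in cytokinesis, was at 0.38, Kif11, a motor that separates the spindle poles, at 0.19, and Kif20a, another motor of cytokinesis, at 0.15. The mitotic kinases Plk1, Aurka and Aurkb were at 0.25, 0.27 and 0.13, Tpx2, the activator of Aurora A, at 0.33, and Birc5, a partner of Aurora B, at 0.04. The kinetochore genes Cenpf and Cenpe were at 0.33 and 0.02 and had mean levels under 1 FPKM. The classical markers of cycling cells differed little: Mki67 was at 2.17 to 4.18 FPKM in IPF and 2.18 to 3.79 FPKM in sham lungs (log2 fold change 0.11, interval -0.33 to 0.55), and Top2a, the topoisomerase that untangles sister chromatids, at 2.18 to 5.55 and 2.46 to 4.01 FPKM (0.12, interval -0.40 to 0.64).

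The D-type cyclins were the most abundant members after Pcna and had estimates on both sides of 0. Ccnd3 was at 17.3, 16.4, 16.6, 17.6 and 15.0 FPKM in the IPF lungs and at 18.7, 19.3, 18.4, 21.1 and 18.0 FPKM in the sham lungs. The groups did not overlap, but the log2 fold change was small, -0.20 (SE 0.06), with a limma adjusted p of 0.083 and a two-sided exact permutation p of 0.00794. Ccnd2 was at 24.8, 20.2, 21.8, 23.5 and 17.8 FPKM in the IPF lungs and at 19.6, 18.6, 17.0, 19.2 and 22.3 FPKM in the sham lungs, with IPF 1 and IPF 4 above every sham lung, the other 3 inside the sham range, and a log2 fold change of 0.16 (interval -0.06 to 0.37). Ccnd1 was at 30.05, 36.6, 39.3, 39.5 and 22.5 FPKM in the IPF lungs and at 31.9, 30.9, 37.4, 34.8 and 39.7 FPKM in the sham lungs. IPF 5 was the lowest of the 10, and the log2 fold change was -0.08 (interval -0.40 to 0.24). Each of the 3 genes overlaps another gene on the opposite strand (Bysl, 9330179D12Rik and Oraov1).

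The lungs of a group differed among themselves in these genes, and more so in the G2/M class. IPF 4 had the highest value of all 10 lungs in 17 of 21 G2/M genes, and IPF 5 the lowest of its own group in 16. Sham 5 had the highest of the 10 in 11 of 16 G1/S genes. The median coefficient of variation was 26.7% in IPF and 20.1% in sham lungs for the G2/M genes, and 16.1% and 16.7% for the G1/S genes. Without IPF 4 the median log2 fold change of the G2/M genes was 0.17, with 17 of 21 genes above 0, and without IPF 5 it was 0.37, with 21 of 21 above 0. Without sham 5 the median of the G1/S genes was -0.21, with 14 of 16 genes below 0.

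**Figure D3:**
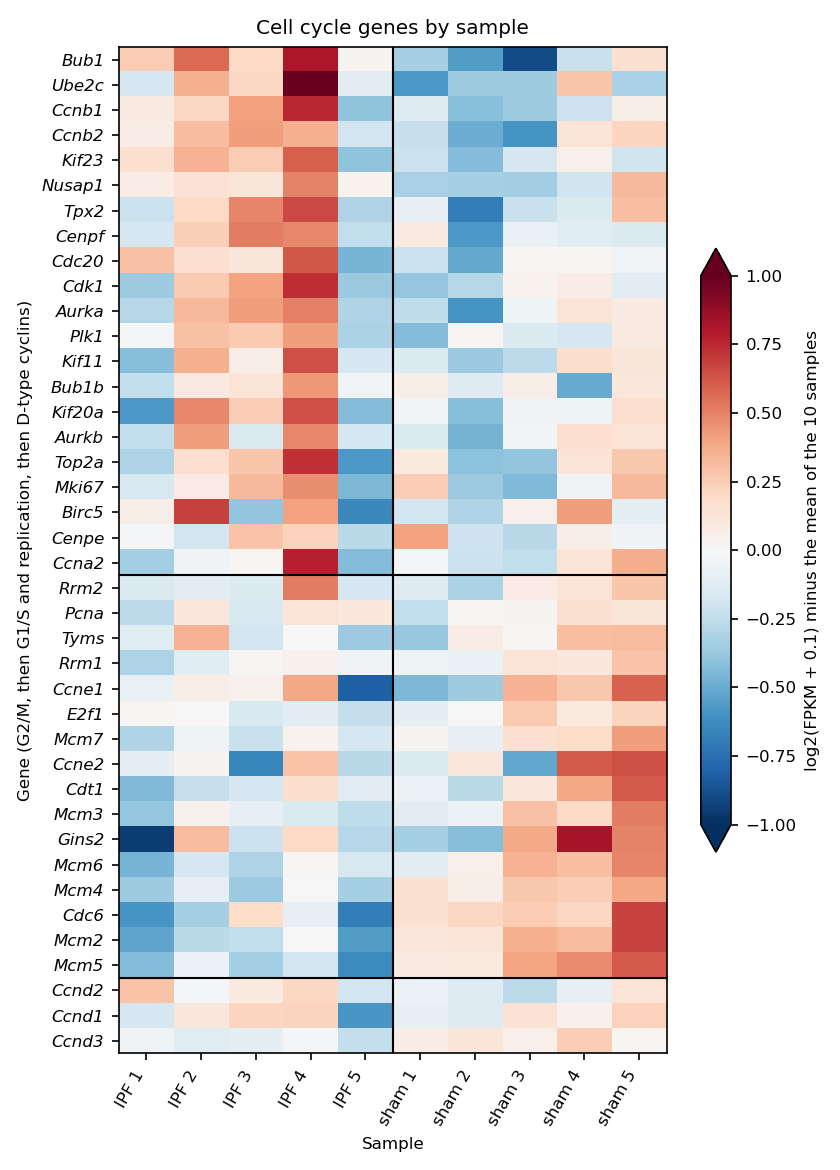
Log2(FPKM + 0.1) of each of the 40 genes (rows, by class) in each of the 10 lungs (columns), minus the mean of the 10, from blue (lower) to red (higher). The column of IPF 4 is red through most of the G2/M block, that of sham 5 red through most of the G1/S block, and the IPF columns are mostly blue from Mcm6 down to Mcm5.

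When the genes of each class were averaged within a lung, on the log2 scale and relative to the mean of the 10 lungs, both classes overlapped between the groups. The G2/M mean was -0.12, 0.26, 0.22, 0.59 and -0.30 in IPF lungs 1 to 5 and -0.13, -0.39, -0.22, 0.01 and 0.09 in sham lungs 1 to 5. The G1/S mean was -0.34, -0.03, -0.19, 0.08 and -0.31 in the IPF lungs and -0.10, -0.05, 0.18, 0.30 and 0.46 in the sham lungs. IPF 4 and sham 5 were at the top of their groups in both classes. The difference of the 2 means within a lung did not overlap: it was 0.22, 0.29, 0.41, 0.51 and 0.02 in the IPF lungs, all above 0, and -0.04, -0.34, -0.41, -0.29 and -0.37 in the sham lungs, all below 0. IPF 5 and sham 1, the lungs nearest to 0, lay close to each other. IPF 5 was also the IPF lung nearest to the sham lungs in the mean of the clock list (0.03), and the part of this in its value was not tested. The sham 1 library also had the most genes above 0 (25486, against 22475 to 23575 in the others). The difference is a description with no test, since the genes were chosen with results of these lungs known.

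**Figure D4:**
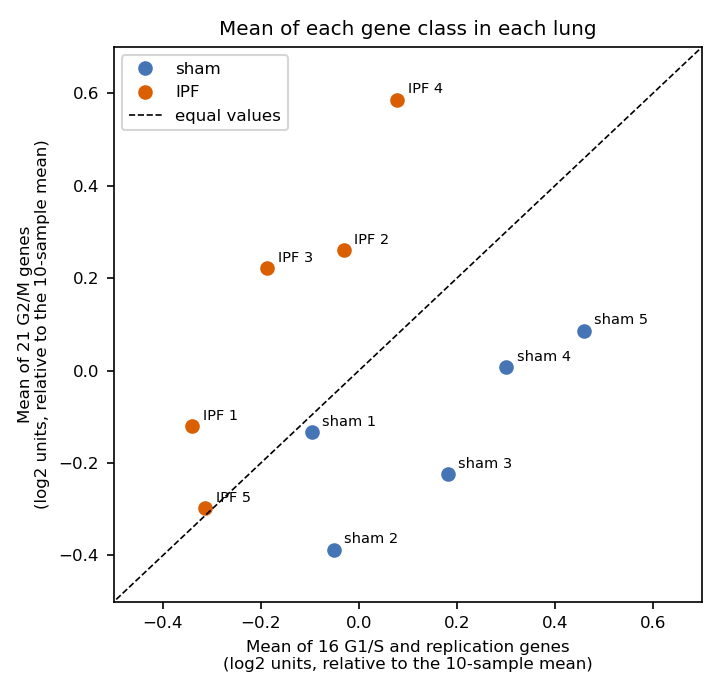
Mean of the 16 G1/S and replication genes (horizontal axis) and of the 21 G2/M genes (vertical axis) in each lung, in log2 units relative to the 10-lung mean, with the line of equal values dashed. The 5 IPF lungs lie on or above the line and the 5 sham lungs below it, with IPF 5 and sham 1 nearest to it.

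The promoters of the 2 classes differ in the short sequences that are known to bind the factors of each phase. Promoter windows from 250 bases before to 50 bases after the transcription start were taken from RefSeq (GRCm38.p6) and matched 31 of the 40 genes, 17 of G2/M, 13 of G1/S and 1 D-type cyclin. Both strands were searched for the cell cycle genes homology region, the CHR, spelled TTTGAA or TTTAAA, which MuvB complexes bind, for the CCAAT box, spelled CCAAT, which NF-Y binds, and for the E2F site, spelled TTTGGCGC, TTTGCCGC, TTTCGCGC or TTTCCCGC. None of these spellings lies within another, matches may overlap at their ends, and TTTAAA reads the same on both strands. Shares are of genes: the 32851 windows belong to 27025 genes, and a gene with several windows, such as Mcm7, counted once if any of them held a match. The CHR was found in 15 of 17 G2/M genes (88.2%) and in 4 of 13 G1/S genes (30.8%). It was in 30.6% of all 27025 genes and in 23.5% of those tested here. The E2F site was found in 1 of 17 G2/M genes (5.88%), Cdk1, and in 6 of 13 G1/S genes (46.2%), beside 2.60% of all genes and 4.20% of those tested here. A CCAAT box was in 88.2% of the G2/M and 61.5% of the G1/S genes, beside 41.1% of all genes and 41.6% of those tested here. A match describes letters and does not show that a factor binds there.

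The 150 bases before the start are shown for helicase genes with a window, 2 that were called and Mcm6, and for the G2/M genes with the highest fold changes or level, to set the letters of the 2 classes side by side. Each runs 5′ to 3′ toward the start, and capitals mark the CHR, CCAAT and E2F letters on either strand. Mcm2 (chr6:88898781-88898930, minus strand) holds a CHR at 70 bases before the start, Mcm5 (chr8:75109359-75109508, plus strand) an E2F site at 149 bases and 2 CCAAT boxes, and Mcm6 (chr1:128359706-128359855, minus strand) 3 E2F matches, of which 2 overlap, and 2 CCAAT boxes. Bub1 (chr2:127831860-127832009, minus strand) holds 2 CCAAT boxes and no CHR letters, while Ccnb1 (chr13:100786487-100786636, minus strand), Cdc20 (chr4:118437344-118437493, minus strand) and Ube2c (chr2:164769779-164769928, plus strand) each hold a CHR, at 42, 18 and 29 bases before the start, and 2 CCAAT boxes.
Mcm2: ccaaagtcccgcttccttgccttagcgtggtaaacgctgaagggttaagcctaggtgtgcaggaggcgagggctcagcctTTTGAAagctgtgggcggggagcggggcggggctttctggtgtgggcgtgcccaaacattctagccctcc
Mcm5: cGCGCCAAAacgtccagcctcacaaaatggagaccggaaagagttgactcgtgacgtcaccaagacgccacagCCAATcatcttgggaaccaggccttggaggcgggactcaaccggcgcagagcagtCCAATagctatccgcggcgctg
Mcm6: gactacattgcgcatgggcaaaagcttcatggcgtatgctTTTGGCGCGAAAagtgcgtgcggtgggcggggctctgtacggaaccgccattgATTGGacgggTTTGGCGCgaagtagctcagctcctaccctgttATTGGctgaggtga
Bub1: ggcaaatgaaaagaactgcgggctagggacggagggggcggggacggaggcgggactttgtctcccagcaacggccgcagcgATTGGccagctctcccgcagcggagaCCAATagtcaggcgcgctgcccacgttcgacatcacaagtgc
Ccnb1: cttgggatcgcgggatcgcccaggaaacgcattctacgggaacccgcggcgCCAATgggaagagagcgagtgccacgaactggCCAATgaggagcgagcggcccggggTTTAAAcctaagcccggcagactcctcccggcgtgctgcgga
Cdc20: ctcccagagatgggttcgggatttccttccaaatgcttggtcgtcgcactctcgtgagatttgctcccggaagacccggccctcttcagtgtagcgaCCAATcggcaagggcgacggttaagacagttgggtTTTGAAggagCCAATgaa
Ube2c: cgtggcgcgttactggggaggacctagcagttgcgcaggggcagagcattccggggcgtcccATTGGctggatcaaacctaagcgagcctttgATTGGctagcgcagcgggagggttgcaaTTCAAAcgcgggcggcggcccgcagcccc

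Among the genes that restrain the cycle, 2 CDK inhibitors were higher in IPF. Of 7 inhibitors tested, 2 were called higher and 0 lower, beside 3.71% and 2.14% of all genes, with a median log2 fold change of 0.17. Cdkn2c, which encodes p18 and blocks the kinases of the D-type cyclins, was at 15.0, 14.4, 13.4, 13.3 and 12.4 FPKM in the IPF lungs and at 7.45, 9.03, 8.90, 9.48 and 9.84 FPKM in the sham lungs. The lowest IPF lung lay above the highest sham lung, as in 4.52% of all genes, and the log2 fold change was 0.61 (SE 0.08, limma adjusted p = 0.0021). Cdkn1a, which encodes p21 and is also a target of the clock and of p53, was at 21.8 to 32.8 FPKM in IPF and 15.9 to 19.1 FPKM in sham lungs, a log2 fold change of 0.53 (SE 0.11, limma adjusted p = 0.018), and without IPF 4 and sham 3 its log2 fold change was 0.58 with a limma adjusted p of 0.065. The inhibitors Cdkn1b, Cdkn1c, Cdkn2a, Cdkn2b and Cdkn2d had log2 fold changes of 0.001, 0.17, 0.06, 0.22 and 0.08, with limma adjusted p from 0.345 to 0.998. Of 6 genes of the G1 and S phase kinases (Cdk2, Cdk4, Cdk6, Cdk7, Ccnh and Mnat1), 0 were called by limma, 0 by voom and 0 at an unadjusted p under 0.05, with a median of -0.02.

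Of the transcription factors of the cycle, Mycn was called and the genes of the E2F, MuvB, B-Myb and FoxM1 lists were not called by limma with all 10 lungs. Without IPF 5, limma called 1 gene lower in each of these 2 lists (with all 10 lungs, 2.14% of all genes were called lower). Of 12 genes of the Rb and E2F family, limma called 0 and voom 0, and 1 was lower at an unadjusted p under 0.05, beside 8.30% of all genes. The median log2 fold change of this family was 0.0007. Of 7 genes of the MuvB core, B-Myb and FoxM1, limma called 0 and voom called 1 lower, beside 3.02% of all genes lower by voom. At an unadjusted p under 0.05, 2 of the 7 were lower, beside the same 8.30%. Mybl2, which encodes B-Myb and was singled out after its values were seen, was at 0.583, 0.712, 0.365, 0.758 and 0.561 FPKM in the IPF lungs and at 1.18, 1.11, 0.820, 0.856 and 1.06 FPKM in the sham lungs. Its groups did not overlap (2.77% of all genes were lower without overlap), and the log2 fold change was -0.69 (adjusted p by limma 0.061). Foxm1 was at 0.04 (limma adjusted p = 0.93). In the Myc family, 1 of 3 genes was called higher, beside 3.71% of all genes. This was Mycn, at 1.85, 1.88, 1.72, 1.48 and 1.27 FPKM in the IPF lungs and at 0.829, 0.829, 0.832, 1.13 and 0.756 FPKM in the sham lungs. All IPF lungs lay above all sham lungs, as in 4.52% of all genes, and the log2 fold change was 0.83 (SE 0.15, limma adjusted p = 0.0077). Myc and Mycl had log2 fold changes of 0.10 and -0.29, with limma adjusted p of 0.69 and 0.51. The value of Mycl rested on single lungs: it was -0.51 without IPF 3, where it was called lower (limma adjusted p = 0.046), and -0.15 without IPF 5.

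Among 10 genes that control entry into mitosis, 1 was called higher and 2 lower, beside 3.71% and 2.14% of all genes. Wee1, the kinase that holds Cdk1 inactive and a known output of the clock, was at 5.44 to 9.62 FPKM in IPF and 16.3 to 20.9 FPKM in sham lungs, a log2 fold change of -1.42 (SE 0.14, limma adjusted p = 0.00032), the farthest from 0 of any gene of the cell cycle lists. Cdc25b, a phosphatase that activates Cdk1, was at 5.18 to 7.11 and 7.15 to 8.32 FPKM (-0.34, limma adjusted p = 0.043), and Gadd45a, a stress gene that restrains Cdk1, at 6.66 to 10.2 and 4.88 to 6.17 FPKM (0.52, limma adjusted p = 0.031). Wee1 kept its call when any 1 lung was left out, but Cdc25b kept it in 1 and Gadd45a in 5 of 10 such fits. Of 18 p53 target genes, 2 were called higher (Cdkn1a and Bbc3) and 2 lower (Sesn2 and Trp53inp1), beside the same shares of all genes, with a median of -0.01. When 1 lung was left out, 2 to 5 of the 18 were called lower (5 without IPF 5) and 1 to 3 higher (1 without IPF 1, IPF 2 or sham 3, and 3 without sham 4). Without IPF 4 and sham 3 none of these 4 was called, while the log2 fold changes of Bbc3, Sesn2 and Trp53inp1 were 0.50, -0.39 and -0.68, against 0.46, -0.41 and -0.73 with all lungs.

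Both wider lists, of replication and of mitosis, had medians on the same sides of 0 as the 40 genes. Of 30 other replication genes, 28 had a log2 fold change below 0, with a median of -0.30. At an unadjusted p under 0.05, 13 were lower and 0 higher (8.30% and 11.2% of all genes were), limma called 1 lower (beside 2.14% of all genes) and voom 5 (beside 3.02%), and over the alternatives the number called lower was 0 to 5. The gene called was Pold1, the catalytic subunit of DNA polymerase delta, at 4.06, 4.35, 4.69, 4.86 and 4.44 FPKM in the IPF lungs and 5.16, 5.35, 6.08, 5.88 and 6.01 FPKM in the sham lungs (-0.34, limma adjusted p = 0.022). Its groups did not overlap (2.77% of all genes were lower without overlap). The call of Pold1 was lost in 5 of 10 fits that left out a lung and without IPF 4 and sham 3 (limma adjusted p = 0.085), where its log2 fold change was still -0.34. Of 48 other mitosis genes, 34 were above 0, with a median of 0.12, and 1 was called higher, a share below the 3.71% of all genes. This was Pttg1, which encodes securin, at 14.6 to 19.6 FPKM in IPF and 12.1 to 14.9 FPKM in sham lungs (0.35, limma adjusted p = 0.042), a call kept in 1 of 10 fits that left out a lung. At an unadjusted p under 0.05, 3 of the 48 were higher and 1 lower, beside 11.2% and 8.30% of all genes. Voom called 1 higher, beside 4.22%, and 0 lower. The median of the other mitosis genes was 0.05 without IPF 4 and sham 3. These lists were drawn up with results of these lungs known, and the same lungs carry both.

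**Figure D5:**
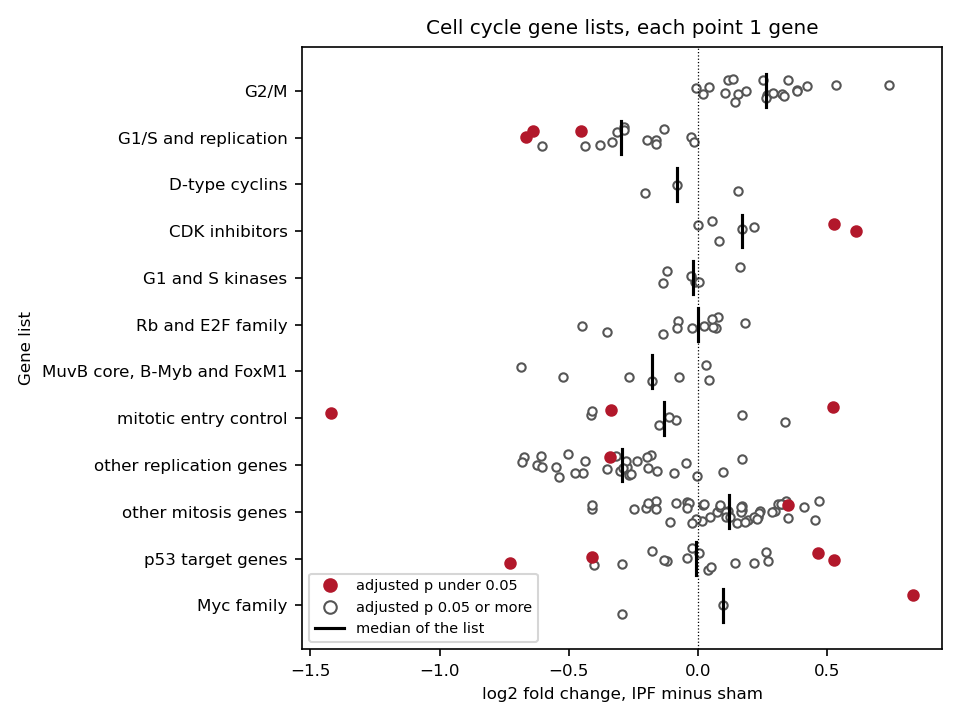
Log2 fold change (IPF minus sham, horizontal axis) of each gene of the 3 classes and 9 further lists of cell cycle control (rows), with the median of each list as a bar and genes past a limma adjusted p of 0.05 filled red. The replication lists lie mostly left of 0 and the mitosis lists mostly right, and Wee1 at -1.42 is the point farthest from 0.

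Cells that divide in the lung can belong to several types, and the markers of some moved with the groups. All 6 B cell markers were called higher in IPF, beside 3.71% of all genes, with a summed level of 33.8 to 50.8 FPKM in IPF and 18.3 to 29.6 FPKM in sham lungs, and 1 of 7 T cell markers was (5 at an unadjusted p under 0.05, beside 11.2% of all genes), with a summed level of 13.4 to 17.5 and 9.06 to 13.1 FPKM. Of 5 thymocyte markers, only Themis passed the filter on low values and Rag2 was above 0 in 1 lung of 10. The erythroid precursor, neutrophil precursor and mature neutrophil lists had 0 called genes by limma and by voom, with 0, 0 and 5 higher at an unadjusted p under 0.05, and IPF 5, the IPF lung with the lowest G2/M mean, had the highest summed level of mature neutrophil markers (300.4 FPKM, against 15.2 to 72.4 FPKM in the sham lungs). Of 5 fibroblast markers, 3 were below 0, with a median of -0.14. Among them 1 was called higher, Pdgfra (0.35, limma adjusted p = 0.021), which was at 50.8 to 60.7 FPKM in IPF and 38.3 to 49.0 FPKM in sham lungs. All 5 smooth muscle markers were below 0, beside 49.6% of all genes, with a median of -0.35. Neither limma nor voom called any of the 5, and 1 was lower at an unadjusted p under 0.05, beside 8.30% of all genes. Of 7 endothelial, 6 alveolar macrophage, 5 alveolar type 1, 6 alveolar type 2 and 8 multiciliated airway markers tested, limma called none. Voom called 1 endothelial gene higher, beside 4.22% of all genes, and 1 alveolar type 2 gene lower, beside 3.02%. At an unadjusted p under 0.05, 2, 1, 0, 1 and 1 of these markers were higher, in that order, and 0, 0, 2, 0 and 0 lower. The part of any of these cells in the values of the cell cycle genes was not tested.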

How the data were processed

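The mRNA of whole lungs of 5 IPF and 5 sham mice was sequenced as 150 bp paired reads. Per the methods, the authors used Fastp for trimming, HISAT2 for alignment and StringTie for quantification, and they deposited an FPKM for each gene in each sample. The methods name GRCm39, but the gene positions are those of GRCm38, since the last gene of chromosome 1 ends at 195323493. The methods name the KAPA mRNA HyperPrep kit and the labels a NEBNext Ultra kit, and use of strand in counting is not given in the sources used here.

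Within a sample, FPKM multiplied by gene length came in whole steps of 1 read (100% of values under 200 reads, within 0.02 reads), so read numbers could be recovered. Genes whose FPKM averaged 0.1 or more were tested with limma 3.58.1 (R 4.3.3), with trended empirical Bayes variances, on log2(FPKM + 0.1) of IPF against sham with no covariate, and p-values were adjusted by Benjamini-Hochberg over 20448 genes. DESeq2, which the authors used on counts, was not used here. All 40 members passed the filter, and 6 of them had a mean FPKM under 1. Permutation tests were exact and two-sided over 252 assignments. The model was tested on simulated data. Tables were made with pandas 2.3.3 in Python 3.11.15.

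The members and gene lists were chosen with earlier results of these data known. Named in full are members with an adjusted p under 0.05, those with the highest and lowest log2 fold change and the highest level in each class, the called genes of the other lists (at most 4), and all CDK inhibitors and Myc genes; other members were added to account for all 40. No label gives litters, so p-values measure the spread between these samples. Pairs of samples of a group differed by far more than sampling noise. Alternatives were a pseudocount of 1 or of 0.01, testing every gene or those averaging 1 FPKM or more, quantile normalization, median-of-ratios scaling, array weights, an untrended variance, a replicate block, voom on the recovered reads, autosomal protein-coding genes alone, each sample left out, and, chosen after seeing the data, leaving out IPF 4 and sham 3 or IPF 5 and sham 1.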

Additional observations from a re-analysis of the deposited data

Results flagged for a closer look

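In 86 groups of 5 lungs that were examined for a lung far from the rest, 6 values stood apart by Dixon's criterion, which chance alone meets in about 1 of 20 groups. IPF 4 had 3 of them: Ccna2 at 3.79 FPKM (1.58 to 2.20 FPKM in the other IPF lungs), Nusap1 at 2.34 FPKM (1.67 to 1.82 FPKM) and Rrm2 at 5.41 FPKM (3.35 to 3.49 FPKM). Sham 5 had 2 of them, Nusap1 at 2.07 FPKM (1.26 to 1.41 FPKM in the other sham lungs) and Cdc6 at 1.28 FPKM (0.859 to 0.929 FPKM). Sham 4 had 1, Ube2c at 2.66 FPKM (1.42 to 1.71 FPKM in the other sham lungs). All 6 were the highest value of their group.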

How the results depend on the processing

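The medians of both classes kept their sign in every alternative run, from -0.37 to -0.21 for the G1/S genes and from 0.17 to 0.37 for the G2/M genes. Mcm2 and Mcm4 were called lower in 23 of 23 alternatives (limma adjusted p from 0.0055 to 0.048 and from 0.0064 to 0.043) and Mcm5 in 22 of 23, Mcm6 in 8 of 23 and Cdc6 in 1 of 22 (without IPF 3), and Cdkn2c, Wee1 and Mycn in all 23. The number of members called higher, 0 as reported, was 1 with array weights, 1 with voom and 1 among autosomal protein-coding genes (Bub1 in each case), and 0 to 2 when a lung was left out (Bub1 and Kif23 without IPF 5, Bub1 without sham 5). Bub1 was called in 5 of 23 alternatives, with a log2 fold change of 0.41 to 0.87 and an adjusted p of 0.026 to 0.26. The number of all genes called, 1196, was 775 to 1620 when a lung was left out, with 775 without IPF 4, and 396 without IPF 4 and sham 3; the last has fewer samples, and the cause was not further tested. The samples share replicate numbers, but same-numbered lungs did not deviate together (correlations from -0.02 to 0.10). With the replicate block 1 member was called higher (Ube2c) and 4 lower (Mcm2, Mcm4, Mcm5 and Mcm6). Ccne1 had as few as 18 reads in a lung, and the part of depth in the width of the intervals was not tested.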
